A study of Mus musculus with 9 samples.

Results

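The rows described here are those of the miR-199 and miR-214 miRNAs in mouse liver. They were chosen by name, as every row starting with mmu-miR-199a-, mmu-miR-199b- or mmu-miR-214-, and 5 of the 1140 rows of the miRNA table met this rule. These were mmu-miR-199a-3p, mmu-miR-199a-5p, mmu-miR-199b-5p, mmu-miR-214-3p and mmu-miR-214-5p. No mmu-miR-199b-3p row was listed. Its mature sequence equals that of mmu-miR-199a-3p, so reads of the 2 cannot be told apart and the mmu-miR-199a-3p row is uncertain in this respect.

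Small RNA libraries were made from whole liver of 9 male C57BL/6 mice, 3 per group, which were 8 weeks old when obtained. The control mice received saline by intraperitoneal injection for 8 weeks, and the TAA mice received thioacetamide (TAA), a hepatotoxin used to induce liver fibrosis, by the same route for 8 weeks. The recovery mice were given TAA for 8 weeks and were then kept untreated for another 8 weeks. They were therefore killed later than the other mice, and recovery and elapsed time cannot be told apart. No genetic change was named in any group, and no batch was given.

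A mature miRNA is cut from a hairpin precursor, and the strands of the hairpin give the 5p and the 3p miRNA. The seed, bases 2 to 8 counted from the 5′ end, largely decides which mRNAs a miRNA represses. miR-199a and miR-214 are typical of mesenchymal cells, and in liver they are known from hepatic stellate cells, the cells that become matrix-producing myofibroblasts in fibrosis. Dnm3os, a non-coding RNA transcribed from the opposite strand of the dynamin 3 gene, is the precursor of miR-199a and miR-214 from chromosome 1. mmu-miR-199a-5p is known to repress caveolin 1, mmu-miR-199a-3p to repress mTOR, and miR-214 to repress the connective tissue growth factor Ccn2.

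Mature sequences were found in RefSeq (build GRCm38.p6) for 4 of the 5 rows, and mmu-miR-199b-5p had no entry. They are shown because they decide which rows can share reads and which rows share a seed, and the capitals mark the seed.
miR-199a-3p: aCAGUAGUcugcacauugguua
miR-199b-3p: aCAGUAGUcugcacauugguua
miR-199a-5p: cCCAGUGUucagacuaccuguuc
miR-214-3p: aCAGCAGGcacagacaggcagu
miR-214-5p: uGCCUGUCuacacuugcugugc

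The 4 members with a sequence had 4 different seeds. mmu-miR-199b-5p, which had no entry, is not covered by this count. The stretch of the Mir199b hairpin that matches mmu-miR-199a-5p, described below, carries the seed of mmu-miR-199a-5p. In the RefSeq table the seed of mmu-miR-199a-3p was shared with mmu-miR-199b-3p and the seed of mmu-miR-214-3p with miR-761, and neither of these was a row of the count table. The hairpins below show where the arms lie, with the mature arms named in RefSeq in capitals.
Mir199a-2: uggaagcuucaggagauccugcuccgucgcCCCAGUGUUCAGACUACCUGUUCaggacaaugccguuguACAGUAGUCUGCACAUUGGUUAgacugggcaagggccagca
Mir214: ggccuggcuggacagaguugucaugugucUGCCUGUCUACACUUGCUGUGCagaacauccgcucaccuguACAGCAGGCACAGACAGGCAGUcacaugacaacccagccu
Mir199b: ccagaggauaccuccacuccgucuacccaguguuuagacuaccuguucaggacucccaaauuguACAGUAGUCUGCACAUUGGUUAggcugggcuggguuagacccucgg

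Bases 26 to 48 of the Mir199b hairpin differ from mmu-miR-199a-5p at 1 position, C10U, counted from 1 at the 5′ end of mmu-miR-199a-5p with the base of mmu-miR-199a-5p first. This position lies outside the seed, so the stretch carries the seed of mmu-miR-199a-5p. If mmu-miR-199b-5p starts where this stretch starts, it shares that seed. The 3p arm was the same in Mir199a-1, Mir199a-2 and Mir199b. The mmu-miR-199a-3p row may thus hold reads of 3 hairpins. No member was among the 20 pairs of rows with nearly equal counts (a difference below 2% of the summed counts).

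The hairpins lie at 4 places in the genome (GRCm38, the build the authors call mm10). Mir199a-2 is at chr1:162217814-162217923 and Mir214 at chr1:162223368-162223477, both on the plus strand. Both overlap an exon of Dnm3os (chr1:162217623-162225550, plus strand) and lie in an intron of Dnm3 on the opposite strand. Mir199a-2 starts 191 bases after the annotated start of Dnm3os and Mir214 starts 5745 bases after it, with 5444 bases between the hairpins. Mir199b (chr2:32318460-32318569, plus strand) lies in an intron of Dnm1, antisense to it. Mir199a-1 (chr9:21496495-21496564, minus strand) lies in an intron of Dnm2, also antisense. Only Mir199a-2 and Mir214 lie in Dnm3os, so miR-214 is a product of that locus alone, whereas the miR-199a rows can also hold reads from Mir199a-1, and mmu-miR-199b-5p is encoded elsewhere.

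**Figure D1:**
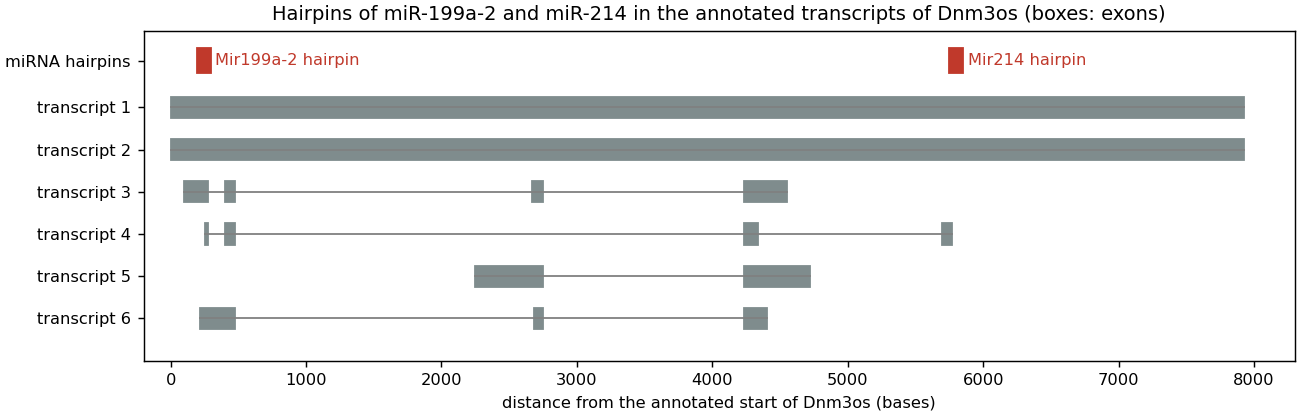
Annotated transcripts of Dnm3os (grey, boxes are exons and lines are introns) and the hairpins of Mir199a-2 and Mir214 (red), against the distance in bases from the annotated start of Dnm3os. Mir199a-2 lies near the start (191 bases) and Mir214 5745 bases from it, and both lie within the long single-exon transcripts.

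The promoter of Dnm3os, whose part in the changes below was not tested, is shown because Mir199a-2 and Mir214 lie in this gene. It covers chr1:162217373-162217672 on the plus strand (RefSeq, GRCm38.p6), and the capitals mark a CArG box, the motif bound by serum response factor.
Dnm3os promoter: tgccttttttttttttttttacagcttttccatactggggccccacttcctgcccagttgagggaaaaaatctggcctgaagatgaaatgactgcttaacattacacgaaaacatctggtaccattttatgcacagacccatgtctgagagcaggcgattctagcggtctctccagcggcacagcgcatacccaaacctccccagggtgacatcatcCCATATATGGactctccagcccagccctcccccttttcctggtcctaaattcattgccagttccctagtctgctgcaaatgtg

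The CArG box lay at -33 to -24 relative to the RefSeq start, and 1.63% of the 32851 promoters of the same length held 1 or more on either strand. The E-box CANNTG, the motif of Twist1 and other basic helix-loop-helix factors, matched at 3 positions, but 72.3% of all promoters held this motif. The letters TGANTCA (AP-1, in 7.81% of promoters) and GGAATG (TEAD, in 14.7%) were not in this window. These matches describe the sequence and are no evidence of binding.

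The libraries held 9071847 to 12983378 counts. At least 1 count was found for 631 to 663 rows of a control library, 806 to 828 of a TAA library and 675 to 722 of a recovery library. Levels are given as CPM, the count relative to the library total scaled by TMM factors, a scaling that assumes that most rows do not change. These factors lay between 0.745 and 0.795 for control libraries, between 1.49 and 1.65 for TAA libraries and between 0.752 and 0.870 for recovery libraries. On the scale of library totals, which is that of the deposited TPM, the median log2 fold change of all rows was 1.12 higher for TAA vs control, fell by 0.86 for recovery vs TAA and was 0.19 higher for recovery vs control. Changes are given on the TMM scale, relative to the bulk of the rows, unless library totals are named.

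All 5 rows were highest in TAA mice, intermediate in recovery mice and lowest in control mice. Their summed level was 453 ± 54.9 CPM (SD, n = 3) in control mice, 1430 ± 304 CPM in TAA mice and 615 ± 9.44 CPM in recovery mice. As a share of all counts they made up 0.0308% to 0.0383% of the control libraries, 0.178% to 0.258% of the TAA libraries and 0.0469% to 0.0531% of the recovery libraries. In whole liver, fewer cells of a type and less RNA per cell cannot be told apart. Each sample was a different mouse, and the tests set differences between groups against the spread between mice.

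mmu-miR-199a-3p, one of the most abundant members, was counted 2112, 1498 and 1767 times in control replicates 1 to 3, 11775, 7908 and 13101 times in the TAA replicates and 3102, 3069 and 3417 times in the recovery replicates. On the TMM scale these counts were 205, 195 and 238 CPM in control mice, 699, 529 and 876 CPM in TAA mice and 338, 287 and 319 CPM in recovery mice. The 3 groups did not overlap, and the spread was widest among the TAA mice (coefficient of variation 24.7%, against 10.8% in control and 8.08% in recovery mice). By abundance the row ranked 65 to 72 in the control libraries and 38 to 42 in the TAA libraries.

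mmu-miR-199a-5p, the opposite arm, was nearly as abundant, at 200, 195 and 246 CPM in control mice, 787, 448 and 582 CPM in TAA mice and 249, 275 and 258 CPM in recovery mice. The TAA mice again stood apart from all others, with TAA replicate 1 highest here and TAA replicate 3 highest for mmu-miR-199a-3p. The lowest recovery mouse, at 249 CPM, was just above the highest control mouse, at 246 CPM.

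mmu-miR-214-3p was at a far lower level. Its values were 15.3, 12.9 and 18.8 CPM in control mice, 65.4, 64.7 and 65.9 CPM in TAA mice and 20.5, 22.3 and 23.2 CPM in recovery mice. The TAA mice were almost equal on this scale, with a coefficient of variation of 0.948%, the lowest of any member in any group. Their counts were 1102, 967 and 986, and their deposited TPM was 104 ± 5.64, so the near-equality depends on the scale. mmu-miR-214-5p, the less abundant arm of the same hairpin, was at 5.81, 4.68 and 5.40 CPM in control mice, 25.8, 17.3 and 24.6 CPM in TAA mice and 6.53, 9.27 and 8.49 CPM in recovery mice. Neither arm overlapped between any of the groups.

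mmu-miR-199b-5p had counts of 69, 27 and 46 in control mice, 868, 317 and 482 in TAA mice and 92, 124 and 95 in recovery mice. These are 6.68, 3.51 and 6.21 CPM, 51.5, 21.2 and 32.2 CPM, and 10.02, 11.6 and 8.86 CPM. Its coefficient of variation was the largest of the 5 rows in control (31.3%) and TAA mice (43.9%), whereas in recovery mice that of mmu-miR-214-5p was larger (17.4% against 13.6%). Control replicate 2, with 27 counts, was the lowest count of any member in any library. Its groups did not overlap either.

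Mature miRNAs are of nearly equal length (22 or 23 bases for those shown), and rows are set in order by CPM here. Equal length alone does not make the counts of different miRNAs comparable, so the order is one of counts. In the control group mmu-miR-199a-5p (213.6 ± 28.2 CPM) and mmu-miR-199a-3p (212.6 ± 22.9 CPM) were level within their spread, followed by mmu-miR-214-3p (15.6 ± 2.95 CPM). mmu-miR-199b-5p (5.47 ± 1.71 CPM) and mmu-miR-214-5p (5.30 ± 0.571 CPM) came last and were level within their spread. In the TAA group the order was mmu-miR-199a-3p (701 ± 173 CPM), mmu-miR-199a-5p (606 ± 171 CPM), mmu-miR-214-3p (65.3 ± 0.619 CPM), mmu-miR-199b-5p (34.97 ± 15.3 CPM) and mmu-miR-214-5p (22.5 ± 4.61 CPM). The recovery group kept this order, with 315 ± 25.4, 260.4 ± 13.0, 22.0 ± 1.40, 10.2 ± 1.38 and 8.10 ± 1.41 CPM. The levels of different rows were not tested against each other.

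**Figure D2:**
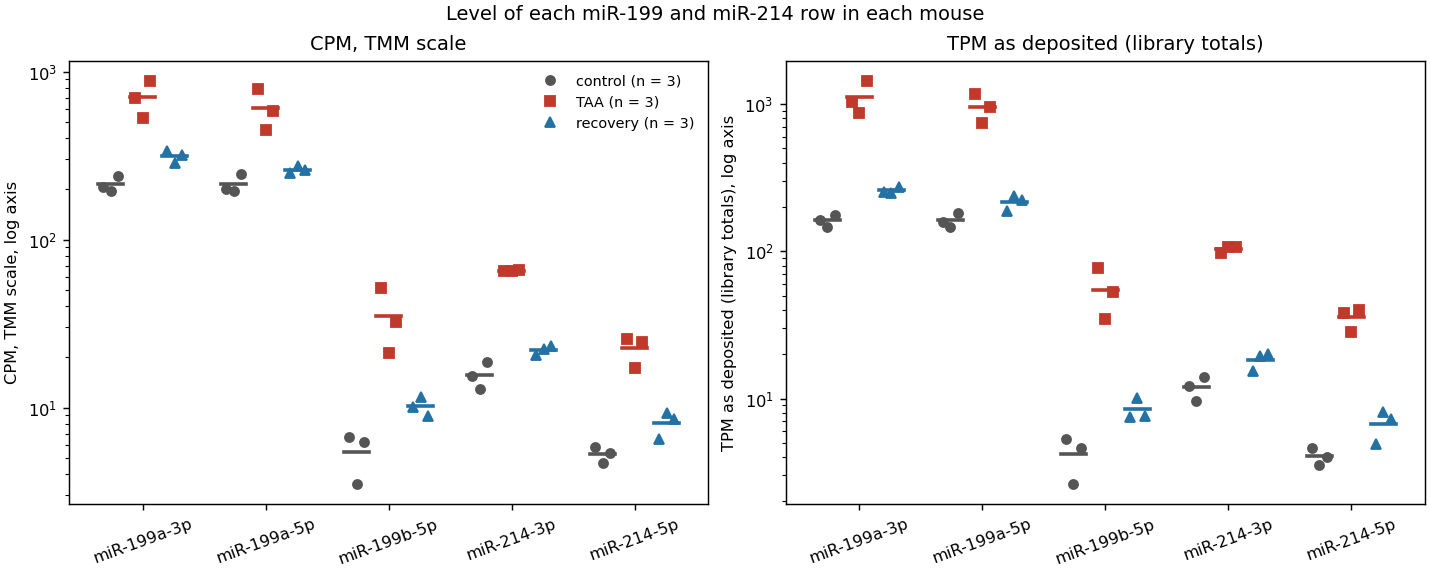
Level of each row in each mouse, in CPM on the TMM scale (left) and in the deposited TPM (right), both on log axes, with points for mice (n = 3 per group) and lines for group means. All TAA points lie above the recovery points and all recovery points above the control points of the same row on both scales, and the 3 TAA points of mmu-miR-214-3p almost coincide on the TMM scale.

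TAA was compared with control to see how the fibrotic liver differed from the saline liver. All 5 rows were up-regulated DEMs (differentially expressed miRNAs), which here means an FDR below 0.05 in edgeR's quasi-likelihood test with a change of 2-fold or more. Of the 420 rows tested, 25% were called up-regulated. mmu-miR-199b-5p changed most among the members, with a log2 fold change of 2.60 (SE 0.38, FDR 0.00107). mmu-miR-214-5p (2.01, SE 0.22, FDR 0.000305) and mmu-miR-214-3p (2.003, SE 0.17, FDR 0.000114) had changes that lay within their errors of each other. mmu-miR-199a-3p rose by 1.66 (SE 0.19, FDR 0.00047) and mmu-miR-199a-5p by 1.44 (SE 0.20, FDR 0.00102). Among the rows tested these changes ranked 54 (mmu-miR-199b-5p) to 89 (mmu-miR-199a-5p) from the top, so that many rows of the table rose more.

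The TAA mice exceeded every control mouse for all 5 rows, a pattern that held for 39% of the rows tested. On library totals the same rows were called with larger changes, from 2.55 for mmu-miR-199a-5p to 3.70 for mmu-miR-199b-5p, but 57.4% of all rows were then called up-regulated.

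The comparison of recovery with TAA, which shares the TAA mice with the first comparison, asked what changed after withdrawal. All 5 rows were down-regulated DEMs, where 14.5% of the 440 rows tested were called down-regulated. mmu-miR-199b-5p again changed most, with a log2 fold change of -1.84 (SE 0.32, FDR 0.00367). The miR-214 arms followed with -1.64 for mmu-miR-214-3p (SE 0.15, FDR 0.000283) and -1.54 for mmu-miR-214-5p (SE 0.24, FDR 0.0024). mmu-miR-199a-5p (-1.28, SE 0.20) and mmu-miR-199a-3p (-1.23, SE 0.20) fell less, each with an FDR of 0.0024. When the test was made against a fold change of 2 instead of no change, mmu-miR-199b-5p (FDR 0.0491) and mmu-miR-214-3p (FDR 0.00882) remained called, and mmu-miR-199a-3p (FDR 0.244), mmu-miR-199a-5p (FDR 0.186) and mmu-miR-214-5p (FDR 0.0671) did not.

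Each recovery mouse was below every TAA mouse for the 5 rows, as for 27% of the rows tested. On library totals the log2 fold changes ran from -2.10 for mmu-miR-199a-3p to -2.70 for mmu-miR-199b-5p, and 46.1% of all rows were called down-regulated on that scale.

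The comparison of recovery with control asked whether levels 8 weeks after withdrawal differed from those of saline mice, and it shares mice with both comparisons above. None of the 5 rows was a DEM in edgeR's quasi-likelihood test, where 10.5% of the 391 rows tested were called up-regulated. In this edgeR test 4 of the 5 rows had an unadjusted p below 0.05. The share of all rows with such a p was not computed, so nothing is read from this count. A p of 0.0428 in this test, that of mmu-miR-214-3p, had an FDR of 0.190. DESeq2 called none either. The largest difference was that of mmu-miR-199b-5p (log2 fold change 0.81, SE 0.26, FDR 0.0716), with 10.2 CPM against 5.47 CPM. mmu-miR-199a-3p was 0.50 higher (SE 0.12, FDR 0.0147), which passed the FDR but not the fold change. By the FDR alone 12% of the rows tested were called up-regulated. On library totals mmu-miR-199b-5p had a log2 fold change of 0.996 (FDR 0.0341) and mmu-miR-199a-3p of 0.68 (FDR 0.00194), both short of 2-fold. Without control replicate 1, control replicate 2 or recovery replicate 3 the FDR of mmu-miR-199a-3p was 0.0528, 0.09995 and 0.0517, and in a fit of all 9 mice it was 0.108.

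The remaining values were 0.54 (SE 0.23, FDR 0.190) for mmu-miR-214-5p, 0.43 (SE 0.18, FDR 0.190) for mmu-miR-214-3p and 0.22 (SE 0.11, FDR 0.301) for mmu-miR-199a-5p. For each of the 5 rows every recovery mouse was above every control mouse, on the TMM scale and on library totals, and 18.2% of the rows tested showed this pattern. All 5 rows passed the filter on low counts in this comparison, which holds no TAA mice.

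**Figure D3:**
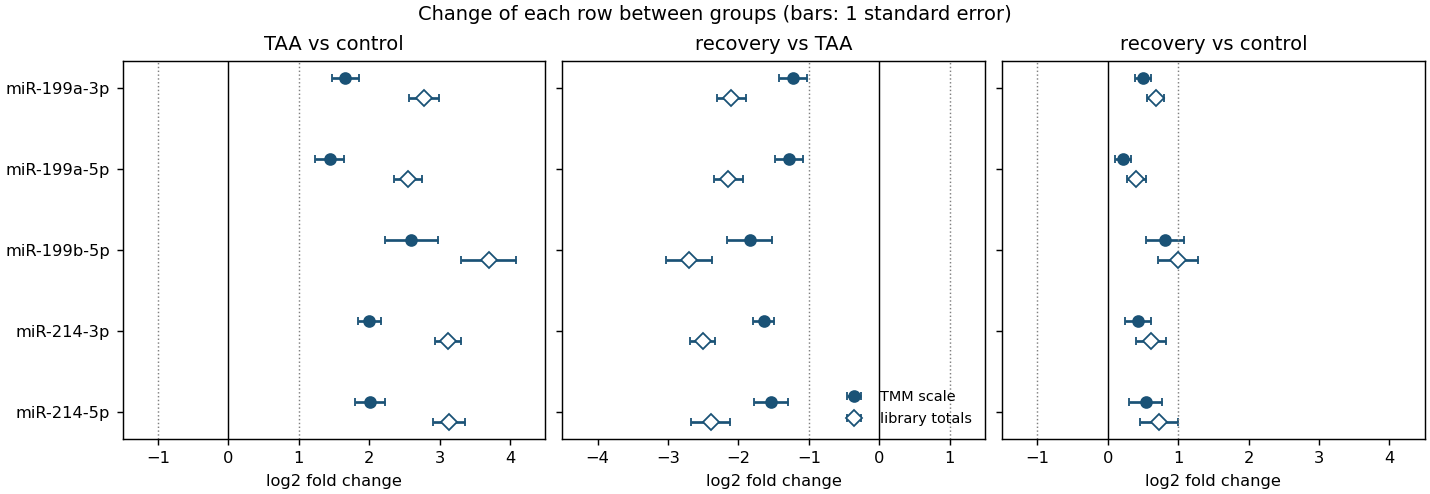
Log2 fold change of each row (bars are 1 standard error, 3 mice per group) in the 3 comparisons, on the TMM scale (filled circles) and on library totals (open diamonds), with dotted lines at a fold change of 2. All points lie above 1 in the left panel (TAA vs control), below -1 in the middle panel (recovery vs TAA) and between 0 and 1 in the right panel (recovery vs control).

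Ratios between rows of 1 library do not depend on its scaling. The ratio of mmu-miR-199b-5p to mmu-miR-199a-5p, which come from different loci, was 0.0337, 0.0183 and 0.0255 in control mice, 0.0655, 0.0474 and 0.0554 in TAA mice and 0.0404, 0.0425 and 0.0346 in recovery mice. The 3 groups did not overlap, and how often other pairs of rows from different loci show this was not counted. The Mir199b stretch differs from mmu-miR-199a-5p at only 1 base. Whether reads of mmu-miR-199a-5p entered the mmu-miR-199b-5p row was not tested. The mean log2 ratio was 1.15 higher in TAA than in control, 0.51 lower in recovery than in TAA and 0.64 higher in recovery than in control. Each of these had an exact two-sided permutation p of 0.1, the smallest that 3 against 3 mice allow, and 0.3 after Benjamini-Hochberg adjustment over the 12 comparisons of ratios, and none of the 12 could reach 0.05 in this design.

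As a share of both rows, mmu-miR-199b-5p made up 1.77% of control replicate 2 (Wilson 95% interval 1.22% to 2.56%), the lowest value, and 6.14% of TAA replicate 1 (5.76% to 6.55%), the highest. Control replicate 1 (3.24%, 2.57% to 4.08%) and recovery replicate 3 (3.33%, 2.73% to 4.05%) were the closest values of these groups, and their intervals overlap. The intervals cover counting error only.

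The ratio of the arms of miR-199a (3p to 5p) was 1.02, 0.999 and 0.969 in control mice, 0.888, 1.18 and 1.505 in TAA mice and 1.36, 1.05 and 1.24 in recovery mice. The mmu-miR-199a-3p row may also hold reads of Mir199b, so this may not be a ratio of the arms of miR-199a alone. The control mice had nearly equal counts in both rows, and the ratios of the TAA mice spread to both sides of theirs. Recovery exceeded control without overlap (log2 difference 0.27, exact permutation p = 0.1, adjusted 0.3). TAA overlapped control (0.22, exact p = 0.4) and recovery (exact p = 0.9).

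Arms of miR-214 were in a ratio of 2.62, 2.73 and 3.44 (3p to 5p) in control mice, 2.54, 3.74 and 2.68 in TAA mice and 3.12, 2.40 and 2.73 in recovery mice. The groups overlapped in every pair, and the exact permutation p was 0.9 between TAA and control and 0.7 in both comparisons with recovery. The arm ratio was also taken for the 46 miRNAs with both arms at a mean of at least 10 CPM, miR-199a and miR-214 included. TAA and control did not overlap in the ratio of 28.3% of them, recovery and TAA in that of 28.3% as well, and recovery and control in that of 8.7%.

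mmu-miR-214-3p relative to mmu-miR-199a-3p, a pair that shares the Dnm3os locus in part, had ratios of 0.0750, 0.0664 and 0.0789 in control mice, 0.0936, 0.122 and 0.0753 in TAA mice and 0.0608, 0.0777 and 0.0730 in recovery mice. The groups overlapped in every pair. The exact permutation p was 0.2 for TAA against control, 0.2 for recovery against TAA and 0.6 for recovery against control.

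**Figure D4:**
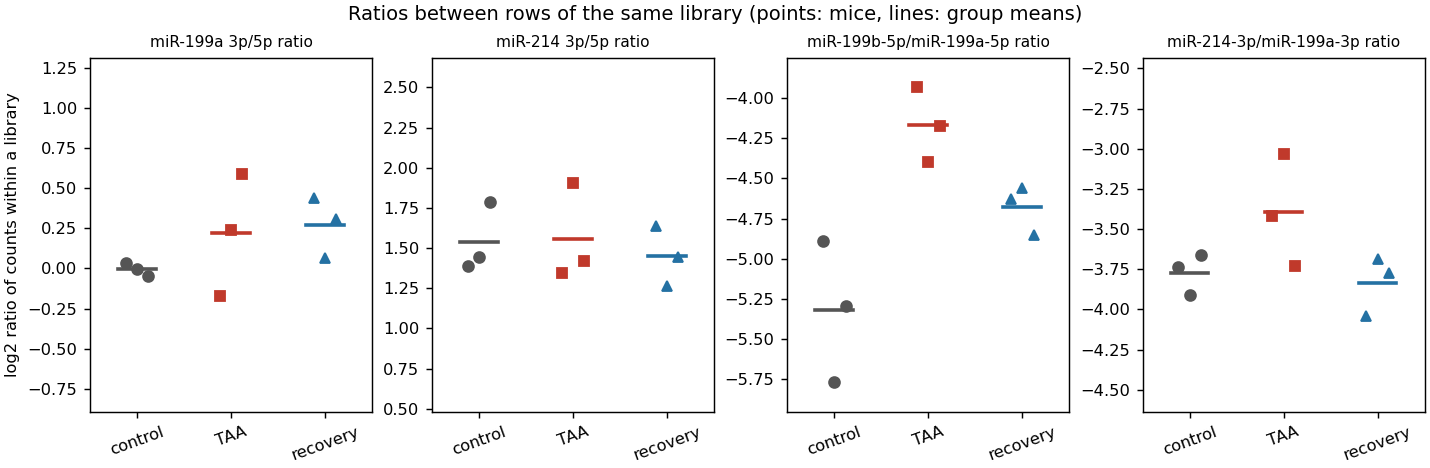
Log2 ratios of counts within a library for 4 pairs of rows, with points for mice, lines for group means (n = 3) and the same length of axis in each panel. The groups are apart for mmu-miR-199b-5p to mmu-miR-199a-5p, and the ratio of the miR-214 arms overlaps between all groups.

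The members were also compared with each other and with the rest of the table by their profile, the log2(CPM + 1) of a row in the 9 mice minus its control mean. Likeness was the root mean square difference of 2 profiles, so that 0 means identical profiles. It is a description, and the profiles share their libraries and scaling. The arms of miR-214 were the most alike of the members, at 0.199, and mmu-miR-199a-5p and mmu-miR-199b-5p were the least alike, at 0.665. mmu-miR-199a-3p was closer to mmu-miR-214-5p (0.231) and mmu-miR-214-3p (0.271) than to its own 5p arm (0.286). The 1 added to the CPM shrinks differences more in rows of low level, so this order may depend on level. mmu-miR-199b-5p differed from the other members by 0.436 to 0.665.

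Among 221 other rows with a mean of at least 10 CPM, the 5 closest to mmu-miR-199a-3p were mmu-miR-181d-5p (0.285), mmu-miR-146b-5p (0.328), mmu-miR-181b-5p (0.344), mmu-miR-200c-3p (0.383) and mmu-miR-497a-5p (0.396). For mmu-miR-214-3p they were mmu-miR-12182-3p (0.288), mmu-miR-183-5p (0.308), mmu-miR-146b-5p (0.316), mmu-miR-181d-5p (0.320) and mmu-miR-200c-3p (0.356), so 3 rows were in both sets. mmu-miR-181d-5p was at 10.3 ± 1.14 CPM in control mice, 37.4 ± 13.0 CPM in TAA mice and 17.6 ± 0.576 CPM in recovery mice. mmu-miR-146b-5p, a miRNA induced by inflammatory signals, was at 151 ± 23.6, 554 ± 123 and 167 ± 16.3 CPM. These likeness values, 0.285 to 0.396, fell within the range between the members themselves, 0.199 to 0.665.

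Other miRNAs tied to stellate cell activation and fibrosis were read from lists. The stellate cell activation list held 10 rows, both arms of miR-21a, miR-143, miR-145a, miR-221 and miR-222. Neither edgeR on the TMM scale nor DESeq2 with its own scaling called any of the 10 in any of the 3 comparisons. In edgeR, unadjusted p-values below 0.05 were found for 3, 1 and 0 of them. The share of all rows with such a p was not computed, so nothing is read from such counts here or for the lists below. The median log2 fold change was 0.12 in TAA vs control, against 0.11 for all rows, and single rows ran from -0.58 to 0.73. The row at 0.73 was mmu-miR-222-3p, named after its values were seen (FDR 0.0464), and it was at -0.74 in recovery vs TAA (FDR 0.0554). mmu-miR-221-3p, also named after its values were seen, was at 0.43 in TAA vs control (FDR 0.0384). Other rows of the list went down. mmu-miR-21a-5p was at -0.36 (FDR 0.0359), and mmu-miR-221-5p, named in the same way, was the row at -0.58 (FDR 0.0903). mmu-miR-21a-5p, the most abundant of them, was at 271378 ± 42328 CPM in control mice and 220923 ± 20266 CPM in TAA mice, whereas the means of its deposited TPM were 206254 and 350573. mmu-miR-143-3p, a smooth muscle miRNA, was at 27732 ± 2621 CPM and 28753 ± 10816 CPM in these groups. On library totals 6 of the 10 were called up-regulated in TAA mice relative to control and 5 were called lower after recovery than in TAA mice.

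The miR-29 family represses collagens and other matrix genes. In TAA vs control 4 of its 6 rows tested were down-regulated and none up-regulated (median -1.38). After withdrawal 4 of 7 were up-regulated relative to TAA mice (median 1.18), and mmu-miR-29a-5p, named here after its values were seen, had a log2 fold change of -0.24 (FDR 0.572). Between recovery and control edgeR and DESeq2 called no row of this family, and none had an unadjusted p below 0.05. mmu-miR-29a-3p was at 1191 ± 42.4 CPM in control mice, 632 ± 69.4 CPM in TAA mice and 1228 ± 175 CPM in recovery mice, and its change in TAA vs control, -0.98 on the log2 scale (FDR 0.000612), stayed short of 2-fold. Its mean deposited TPM was 909 in control and 1006 in TAA mice. mmu-miR-29c-5p, at 33.8 ± 8.10 CPM in control and 11.7 ± 2.17 CPM in TAA mice, fell by 1.59 on the log2 scale (SE 0.24, FDR 0.00122). On library totals the median was -0.26 in TAA vs control with 1 row called down-regulated, and after withdrawal 1 row was called up-regulated and 1 down-regulated.

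Lists of miRNAs of other liver cells were read in the same way. All 7 biliary epithelial rows (the miR-200 family) were up-regulated in TAA vs control (median 2.70), and all 7 fell after withdrawal (median -1.92), on the TMM scale and on library totals. Their sum was 586 to 795 CPM in control mice, 3395 to 5477 CPM in TAA mice and 1286 to 1473 CPM in recovery mice. For mmu-miR-200b-3p the control level was 335 ± 45.8 CPM and the TAA level 2323 ± 652 CPM, a log2 difference of 2.73 (SE 0.20, FDR 0.000104). For mmu-miR-200a-3p they were 310.1 ± 50.3 and 1534 ± 422 CPM, a log2 difference of 2.24 (SE 0.21, FDR 0.00016). In recovery vs control 1 row of this list, mmu-miR-200a-3p, was called on the TMM scale (1.01, SE 0.13, FDR 0.00026), and 4 rows were called on library totals.

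Of the 9 leukocyte rows, 4 rose with TAA and 3 fell in recovery vs TAA on the TMM scale, and 8 rose and 8 fell on library totals. Between recovery and control edgeR and DESeq2 called none, and 1 had an unadjusted p below 0.05. The sum was 701 to 956 CPM in control mice, 1196 to 1486 CPM in TAA mice and 765 to 1291 CPM in recovery mice. mmu-miR-146b-5p was up-regulated in TAA vs control (1.803, SE 0.20, FDR 0.000341), and mmu-miR-146a-5p, its close relative, had a log2 fold change of -0.17 (FDR 0.452).

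All 5 hepatocyte rows were down-regulated in TAA vs control (median -1.58) and 4 of 5 up-regulated in recovery vs TAA, with sums of 514396 to 527545 CPM in control mice, 148654 to 171431 CPM in TAA mice and 435378 to 518347 CPM in recovery mice. mmu-miR-122-5p was at 266418 ± 4071 CPM in control and 71386 ± 1999 CPM in TAA mice, and mmu-miR-148a-3p at 151661 ± 11282 and 51001 ± 10131 CPM. On library totals edgeR called none of the 5 in any comparison. In recovery vs control neither edgeR on the TMM scale nor DESeq2 with its own scaling called any, and 2 had an unadjusted p below 0.05 in edgeR. The part of biliary, leukocyte and hepatocyte miRNAs in the changes of the members was not tested.

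Neither endothelial row was called by edgeR or DESeq2 in any comparison, although both had an unadjusted p below 0.05 when TAA mice were set against either of the other groups. mmu-miR-126a-3p had a log2 fold change of -0.55 (FDR 0.00371) and mmu-miR-126a-5p of -0.81 (FDR 0.00107) in TAA vs control. Of the 4 red cell rows, mmu-miR-451a was called, with -1.71 in TAA vs control (FDR 0.00273) and -1.05 in recovery vs control (FDR 0.0192), and edgeR called no other row of this list. DESeq2 called 3 red cell rows lower in TAA vs control. On library totals edgeR called no red cell row in any comparison, and the median in TAA vs control was 0.13, against -0.99 on the TMM scale. mmu-miR-486a-5p had a log2 fold change of -0.98 (FDR 0.0359) in TAA vs control and -0.80 (FDR 0.00365) in recovery vs control. The red cell sum was 803 to 1381 CPM in control mice, 210.5 to 481 CPM in TAA mice and 348 to 657 CPM in recovery mice. The miRNA table holds no mRNA, so the stellate cell origin of the members could not be checked in it.

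**Figure D5:**
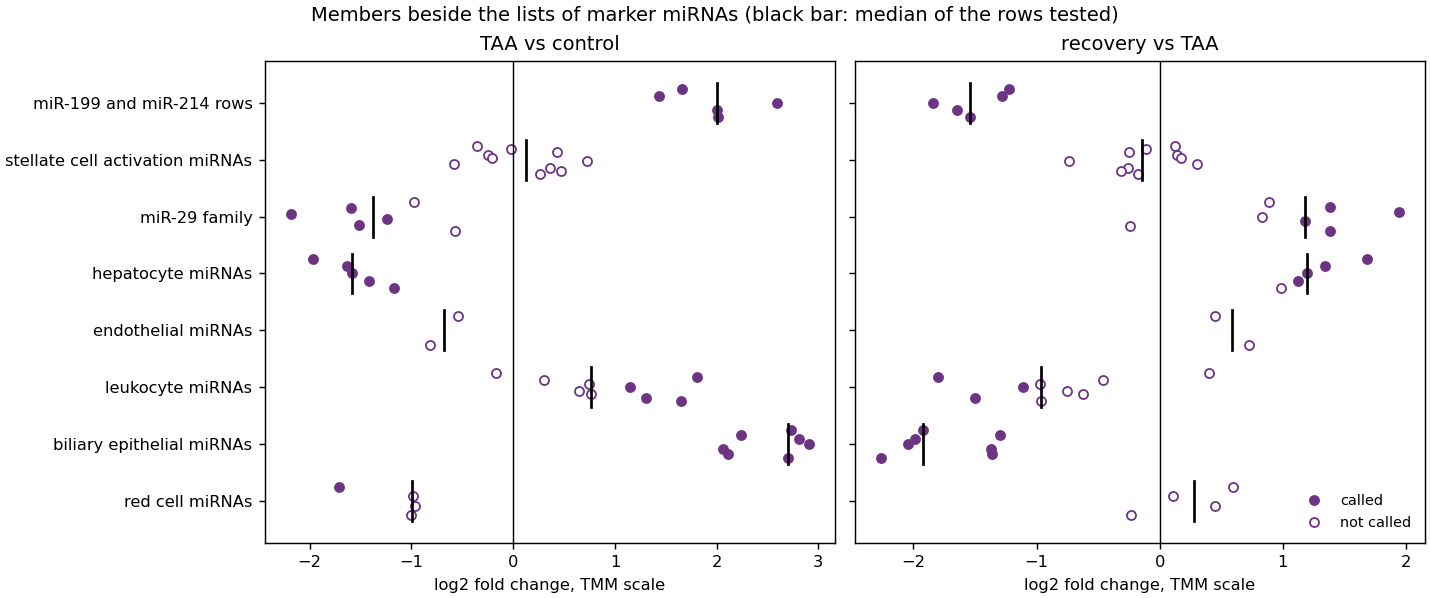
Log2 fold change on the TMM scale of the 5 members and of each tested row of 7 lists, in TAA vs control (left) and recovery vs TAA (right), with filled points for rows called and black bars for medians. The members and the 7 biliary rows lie above 0 on the left and below 0 on the right, the hepatocyte rows lie on the other side of 0 in both panels, and the 10 stellate cell activation rows lie on both sides of 0, with none called.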

How the data were processed

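The authors filtered reads of NEBNext small RNA libraries with their own scripts, mapped them to mm10 and miRBase with Bowtie (version 1.3.0 in the submitters' notes) and deposited 1 table with a raw read count and a TPM per mature miRNA and sample. The deposited TPM is the count relative to the column total, with no term for length. How reads that match several miRNAs were assigned was not given in the sources used here. Samples were grouped by their labels.

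Counts were tested with edgeR (version 4.0.16, R 4.3.3) in place of the authors' DESeq2. Each comparison used its 6 libraries, with filterByExpr (minimum count 10), TMM scaling, the quasi-likelihood F test and Benjamini-Hochberg adjustment over all rows tested. The SE was taken as the absolute log2 fold change over the root of F. Ratios had a pseudocount of 0.5 counts, with scipy 1.17.1 for exact permutation tests and Wilson intervals. The edgeR step was tested on simulated data. DESeq2 (1.42.0), limma (3.58.1) on log2(TPM + 1) and other filters, scalings, thresholds and sample sets were alternatives.

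Rows named are the members, the 5 rows most like miR-199a-3p and the 5 most like miR-214-3p, and the 2 most abundant rows of each list. Members and lists were chosen with earlier results of these data known. Hairpin positions were compared with GENCODE M21, and sequences came from RefSeq, where 935 of 1140 rows matched. The mRNA data were not used here.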

Additional observations from a re-analysis of the deposited data

How the results depend on the processing

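The number of members called remained 5 of 5 in TAA vs control under all 18 alternatives. In recovery vs TAA it was 5 except in the test against a fold change of 2, where it was 2, with log2 fold changes of -1.23 for miR-199a-3p, -1.28 for miR-199a-5p and -1.54 for miR-214-5p no longer called. In recovery vs control it was 0, except that the FDR alone called 1, miR-199a-3p. Only 3 members passed a mean of at least 10 CPM in that comparison. No value changed direction in a called result. On library totals the summed level of the members was 345 TPM for control, 2261 TPM for TAA and 509 TPM for recovery. Leaving out each mouse in turn kept 5, 5 and 0 members called in the 3 comparisons, and the log2 fold changes of miR-199b-5p then ran from 2.24 to 2.85 in TAA vs control and from -2.05 to -1.41 in recovery vs TAA. In recovery vs TAA those of miR-199a-3p ran from -1.33 to -1.03 and those of miR-199a-5p from -1.40 to -1.001. The last of these only just passed the 2-fold limit.

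Replicate numbers are shared between the groups, but same-numbered mice are different animals. The deviations of the 9 same-numbered pairs of libraries correlated with r of -0.258 to 0.242, and 3 were over 0.1, so the numbers were not taken as pairs. A fit with this number as a replicate block called 5, 5 and 0 members. Depth limits mainly miR-199b-5p and miR-214-5p, which had at most 69 counts in a control library.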
